A study of Drosophila melanogaster with 24 samples.

Results

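The peaks at 6 genes of the Drosophila JAK-STAT pathway were followed across the chromatin maps of Isha and 3 insulator proteins. The genes were dome, hop, Stat92E, Socs36E, Ptp61F and Su(var)2-10. They are 6 of 13922 protein-coding genes on the main chromosome arms, picked by name. Each was given every peak that overlapped its annotated span or the 5 kb on either side by at least 1 bp. In all, 72 of the 34747 peaks in the 8 deposited lists fell in these windows. The genes were chosen with results of these data known, so their peaks are described here and not tested.

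The maps come from chromatin immunoprecipitation and sequencing in Kc167, a female cell line derived from Drosophila embryos. Isha was knocked down for 5 days by transfection of 12 µg of double-stranded RNA, and the control cells are labelled mock. Antisera to Isha and to the insulator proteins CP190, Mod(mdg4)67.2 and Su(Hw) were used, to ask how far their sites coincide and whether Isha is needed for the binding of the others. The 24 libraries include 8 inputs and form 12 groups of 2 replicates, the Isha replicates having been made with different antisera. In each treatment the inputs for Isha are labelled apart from the other inputs, so comparisons of Isha with the other proteins run across these sets. Each antibody and treatment has 1 peak list for both replicates, with positions in dm6 and no score. No difference between treatments therefore has a replicate check or a p-value, the depth behind a peak is unknown, and a peak missing from a list may be a weaker one under the authors' threshold. All groups are 1 cell line, and no expression values were used here, so whether the 6 genes are active in these cells was not measured.

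In the JAK-STAT pathway a secreted Unpaired ligand binds a receptor at the cell surface, the receptor activates a Janus kinase, and the kinase phosphorylates a STAT protein that enters the nucleus and switches genes on. Flies have a much smaller set of these parts than mammals. The pathway is best known there for embryonic segmentation, stem cell niches, immunity and blood, where an overactive kinase drives overgrowth of blood cells. Dome is the receptor, Hop the kinase and Stat92E the transcription factor. The other 3 members restrain the signal: Socs36E is a suppressor of cytokine signalling that Stat92E itself induces, Ptp61F is a tyrosine phosphatase that counters the kinase, and Su(var)2-10 is the fly PIAS protein, a SUMO ligase and chromatin factor that inhibits STAT. Among the proteins mapped, Su(Hw) binds DNA through zinc fingers at insulators of the gypsy kind, and CP190 and Mod(mdg4)67.2 are its partners. No sequence is shown because no genome sequence was used here.

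The targeted protein had far fewer peaks after knockdown. On the main arms Isha had 4735 mock and 932 knockdown peaks, CP190 had 8193 and 8880, Su(Hw) 4900 and 4711, and Mod(mdg4) 1305 and 1091.

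Isha and CP190 were found together over an end of each of the 6 genes. In mock cells an Isha peak and a CP190 peak both covered the same annotated end of dome, hop, Stat92E, Socs36E, Ptp61F and Su(var)2-10, against 31.4% of all protein-coding genes (4377 of 13922). After knockdown CP190 still covered that end in 6 of 6 genes. Isha still covered it in 3 of 6, dome, Socs36E and Su(var)2-10. Of the 4377 genes with both proteins at the same end in mock cells, 4250 had CP190 there after knockdown and 1141 had Isha. As shares of all genes, with or without that mock arrangement, these are 30.5% and 8.20%. The ends of hop, Stat92E and Ptp61F had lost Isha and kept CP190. This feature was chosen after the peaks had been seen. The annotation used gives no strand, so ends are called lower or higher by coordinate and are not told apart as starts and stops of transcription.

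Counted over the whole windows, mock Isha was present at 6 of 6 members (61.2% of all genes), CP190 at 6 (79.1%), Su(Hw) at 3 (38.6%) and Mod(mdg4) at 2 (15.1%). After knockdown Isha was present at 6 (22.9%), CP190 at 6 (80.7%), Su(Hw) at 4 (36.8%) and Mod(mdg4) at 1 (14.0%). Of all genes with mock Isha in the window, 37.2% also had knockdown Isha. The membership rule uses these same peaks, and CP190 is near most genes. The shares also differ with gene length. Among genes with spans from 5 to under 10 kb, which hold hop, dome and Su(var)2-10, mock Isha was at 73.0% and knockdown Isha at 26.8%. In spans from 10 to under 20 kb, those of Stat92E and Socs36E, the shares were 68.0% and 22.5%. In spans of 100 kb or more, such as Ptp61F, they were 54.2% and 19.3%.

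The count of 6 members with Isha after knockdown depends on the window. Within the gene spans alone, or with 1 kb added, it was 4, because the remaining peaks near hop and Stat92E lie beyond those limits. All genes then had 11.3% and 14.8%. With 10 kb added it was 6, against 29.4%. The mock counts of Isha and CP190 were 6 at every window tried, while mock Su(Hw) ran from 2 members in the spans to 5 with 10 kb added.

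**Figure D1:**
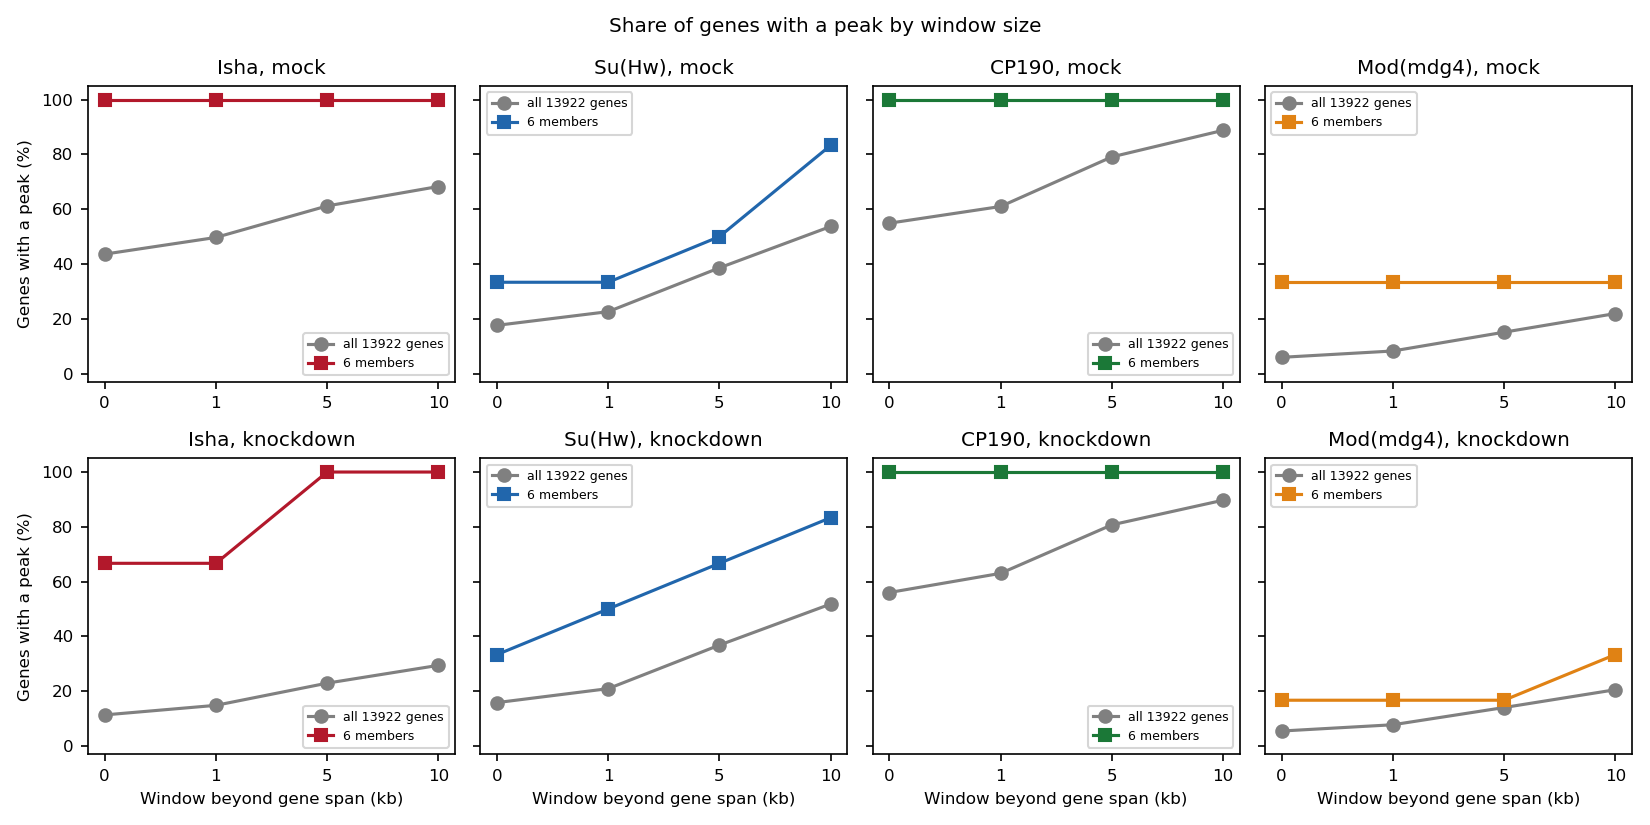
Share of genes with a peak (percent) in each of the 8 lists, against the sequence added to each side of the gene span (kb), for the 6 members (squares) and all 13922 protein-coding genes (circles). The members' share after knockdown steps from 4 to 6 genes for Isha between 1 and 5 kb, and all genes rise slowly from 11.3% to 29.4%.

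The 6 genes fell into different patterns over the 8 lists. Ptp61F had a peak in all 8 lists, Socs36E in 7, hop in 6, Stat92E in 5, and dome and Su(var)2-10 in 4 each. These numbers depend on the window: hop was in 3 lists within its span or with 1 kb added, Stat92E in 3 within its span and in 6 with 10 kb added, and dome in 7 with 10 kb added, while Ptp61F, Socs36E and Su(var)2-10 had the same number at each window. The pattern of dome and Su(var)2-10, Isha and CP190 in both treatments and nothing else, is shared by 2148 genes (15.4%). That of Socs36E, all lists but knockdown Mod(mdg4), is found at 25 genes (0.180%). All 8 lists were present at 217 genes (1.56%), and at 14.5% of the genes spanning 100 kb or more.

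**Figure D2:**
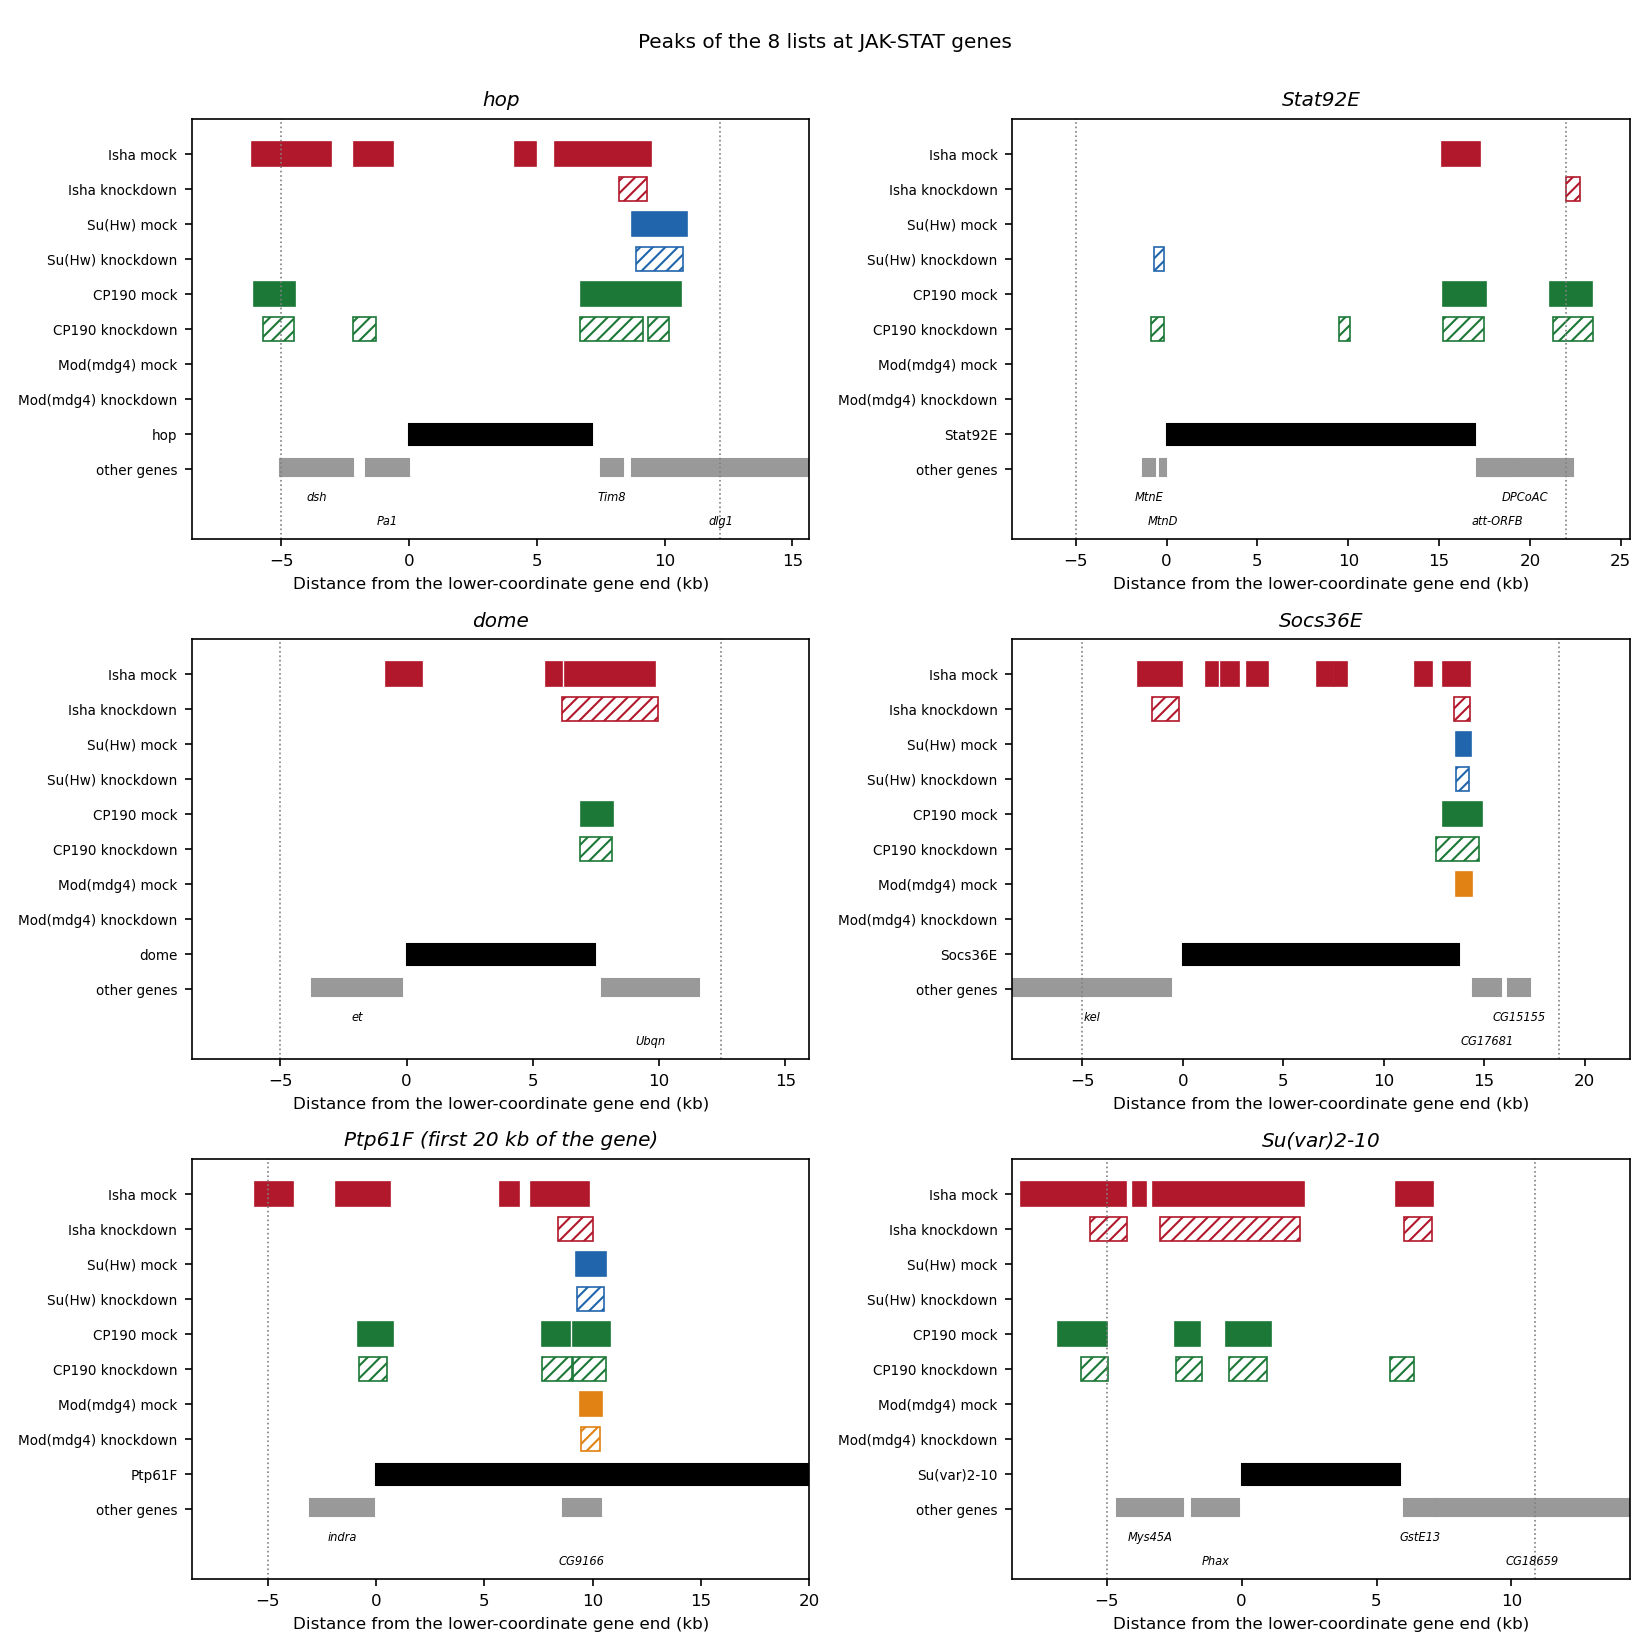
Peaks of the 8 lists around each gene, against distance from the lower-coordinate gene end (kb). Filled boxes are mock peaks, hatched boxes knockdown peaks, the black bar is the gene, grey bars are other genes within 3 kb of it, and dotted lines mark 5 kb beyond the gene. Of 24 mock Isha boxes 9 overlap a hatched Isha box, while all 12 mock CP190 boxes overlap a hatched CP190 box.

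The receptor gene dome (X, 19676061 to 19683518) kept most of its Isha. In mock cells Isha covered the lower end, which faces the neighbouring gene et, with a peak of 1425 bp (19675258 to 19676682). It had a narrow peak of 651 bp inside the gene (19681579 to 19682229) and a wide one of 3569 bp over the higher end (19682321 to 19685889), which reaches into Ubqn, a ubiquilin gene. After knockdown the peak between et and dome was gone, and a single peak of 3801 bp (19682202 to 19686002) spanned the wide site and the edge of the narrow one. The wide site is where CP190 sat in both treatments, with peaks of 1273 bp and 1275 bp that differed by 38 and 36 bp at their edges. No Su(Hw) or Mod(mdg4) peak lay in the window.

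The kinase gene hop (X, 11360930 to 11368098) lost most of its Isha. Its 4 mock Isha peaks lay over CG1737 and dsh, a Wnt pathway gene (11354792 to 11357854), at Pa1 (11358790 to 11360285), inside hop (11365092 to 11365911), and over the higher end of hop (11366651 to 11370397), where the peak of 3747 bp also covered Tim8 and the lower end of dlg1, a cell polarity gene. After knockdown only the last overlapped a peak. That peak had shrunk to 1112 bp (11369127 to 11370238), lay over Tim8 and dlg1, and no longer touched hop. What was left of Isha there lay on the side of Su(Hw), which had a peak of 2134 bp in dlg1 in mock cells (11369657 to 11371790) and one of 1835 bp after knockdown.

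CP190 at hop stayed but was divided. Its mock peak of 3894 bp (11367665 to 11371558), at percentile 99.0 of its list by width, was matched after knockdown by a peak of 2459 bp (11367623 to 11370081) and one of 845 bp (11370262 to 11371106). A further CP190 peak of 918 bp (11358734 to 11359651) appeared at Pa1 after knockdown only, where mock cells had Isha and no CP190.

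Stat92E (3R, 20535323 to 20552311), the transcription factor gene, had the least Isha. Its only mock Isha peak, of 2059 bp (20550507 to 20552565), covered the higher end. A CP190 peak of 2385 bp (20550511 to 20552895) covered that end too, the lower edges of the 2 peaks lying 4 bp apart. Both peaks also reached into the neighbouring gene DPCoAC. After knockdown Isha had no peak at the higher end of Stat92E, and CP190 kept one of 2272 bp (20550513 to 20552784). The knockdown Isha peak counted for the gene, of 775 bp (20557290 to 20558064), lies at the far end of the neighbouring carrier gene DPCoAC and reaches into the window by 22 bp. Its mock counterpart (20557809 to 20560681) begins 498 bp outside the window, and no knockdown Isha peak overlapped Stat92E itself.

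Stat92E was also the member with the most peaks called only after knockdown. At its lower end, over the metallothionein genes MtnE and MtnD, Su(Hw) had a peak of 570 bp (20534606 to 20535175) and CP190 one of 712 bp (20534478 to 20535189) in knockdown cells, and neither had one in mock cells. Another such peak, of CP190 and 587 bp wide (20544829 to 20545415), lay inside the gene. All are narrow: their widths stood at percentiles 2.63, 10.2 and 2.78 of their lists. No mock Isha peak lay at either place. At the other edge of the window the reverse was seen, a mock Su(Hw) peak of 915 bp (20557421 to 20558335), 110 bp outside, with no counterpart after knockdown.

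Socs36E (2L, 18138675 to 18152417), the feedback inhibitor, carried the most Isha peaks. It had 8 in mock cells, a number reached by 34 of 13922 genes (0.244%). Of these, 6 lay inside the gene and overlapped none of the other 3 proteins, at 18139844 to 18140430, 18140568 to 18141445, 18141846 to 18142921, 18145369 to 18146152, 18146213 to 18146870 and 18150209 to 18151062. They were 587 to 1076 bp wide, and all 6 were gone after knockdown. The peak just below the lower end, next to kel, a ring canal gene (18136445 to 18138613), was kept and narrowed from 2169 to 1383 bp. The count of 8 depends on how peaks are divided. With peaks within 500 bp merged, the 6 members had 18 mock Isha peaks in place of 24. By the summed width of whole mock Isha peaks, Su(var)2-10 (11350 bp) and hop (9126 bp) stood above Socs36E (8375 bp).

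The higher end of Socs36E held all 4 proteins in mock cells. Isha had a peak of 1369 bp there (18151614 to 18152982), Su(Hw) one of 719 bp (18152291 to 18153009), CP190 one of 1915 bp (18151633 to 18153547) and Mod(mdg4) one of 790 bp (18152270 to 18153059). After knockdown Isha had 787 bp (18152161 to 18152947), Su(Hw) 616 bp (18152292 to 18152907) and CP190 2119 bp (18151287 to 18153405), and Mod(mdg4) had no peak. Of the 75 mock Isha peaks that overlapped all 3 other proteins, 2 (2.67%) lost Mod(mdg4) alone as this one did. Another 26 (34.7%) stayed in all 4 lists, 39 (52.0%) lost Isha alone, and 6 (8.00%) lost both Isha and Mod(mdg4).

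Ptp61F (3L, 1342493 to 1475257), the phosphatase gene, held such a fully retained site. In mock cells Isha covered 1349618 to 1352309, Su(Hw) 1351717 to 1353117 and Mod(mdg4) 1351883 to 1352936, about 9 kb inside the gene at the nested gene CG9166. CP190 had a pair of peaks there, 1350137 to 1351449 and 1351581 to 1353294. All were present after knockdown. Isha narrowed from 2692 to 1627 bp, Su(Hw) from 1401 to 1241 bp and Mod(mdg4) from 1054 to 897 bp, and CP190 went from 1313 and 1714 bp to 1376 and 1492 bp.

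The other 3 mock Isha peaks of Ptp61F were lost. Among them were a peak over the lower gene end facing indra (1340632 to 1343148) and a peak inside the gene (1348205 to 1349106). At the lower end CP190 stayed, with 1631 bp in mock cells (1341643 to 1343273) and 1286 bp after knockdown (1341709 to 1342994). The rest of the gene held no peak. From 1353295 to 1488154 none of the 8 lists held a peak, a stretch of 134860 bp that takes in 91.9% of the gene span. Of 10813 such stretches between peaks on the main arms, 43 were at least as long, and the median was 4766 bp. It holds 9 whole genes, among them rho and ru, which encode rhomboid proteases of the EGF receptor pathway.

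Su(var)2-10 (2R, 9116122 to 9122000), the PIAS gene, kept 3 of its 4 mock Isha peaks. The widest Isha peak of any member, 5609 bp (9112828 to 9118436) and at percentile 98.9 of its list, covered the lower end of the gene and the whole of Phax, a gene for export of small nuclear RNA. It was still 5190 bp wide after knockdown (9113105 to 9118294). The peak over the higher end and GstE13 went from 1362 bp (9121857 to 9123218) to 1018 bp (9122156 to 9123173). The knockdown peak lay over GstE13 and no longer touched Su(var)2-10. The peak around tsu, an exon junction complex gene, shrank from 3903 bp (9107955 to 9111857) to 1375 bp (9110515 to 9111889). The peak that was lost, in Mys45A, was 476 bp wide.

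CP190 at Su(var)2-10 lay under the wide Isha peak in both treatments, with mock peaks of 935 bp (9113639 to 9114573) and 1664 bp (9115551 to 9117214) and knockdown peaks of 973 and 1401 bp at the same places. A CP190 peak of 901 bp (9121618 to 9122518) was called at the higher end after knockdown only. Mock Isha covered that end, while the knockdown Isha peak overlapped this CP190 peak and not the gene. Around tsu a mock CP190 peak of 1829 bp (9109322 to 9111150) was divided as at hop, matching 2 knockdown peaks. One had 1023 bp (9110167 to 9111189), and the other (9109358 to 9109986) lay outside the window. The nearest Su(Hw) peak in mock cells was 53353 bp from the gene.

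Taken over all 6 genes, 9 of 24 mock Isha peaks (37.5%, Wilson 95% interval 21.2 to 57.3%) overlapped a knockdown Isha peak, against 18.9% of the whole list (17.8 to 20.0%). This share depends on what counts as the same peak. Where midpoints had to lie within 250 bp, 3 of 24 were kept (12.5%, 4.34 to 31.0%), against 9.48% of the whole list, and where each peak had to cover 50% of the other, 6 of 24 (25.0%, 12.0 to 44.9%), against 14.1%. Under none of the definitions are the members' share and interval a test against the whole list, because the genes were chosen with these data known. The intervals cover counting error only, and neighbouring peaks are not independent. The median width was 2692 bp for kept and 902 bp for lost peaks, and in the whole list 2495 and 1361.5 bp. All 9 knockdown Isha peaks overlapped a mock Isha peak by 1 bp or more. In the whole knockdown list only 41 of 932 (4.40%) did not. With the midpoint definition 66.7% of the 9 had no mock counterpart, and the whole-list share by that definition was not computed.

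The kept and lost Isha peaks were also sorted by their partners. Of the 9 mock Isha peaks with CP190, 6 were kept and 3 lost. Of the 6 with CP190 and neither of the other proteins, 3 were kept and 3 lost, and of the 15 with none of the 3 proteins, 3 were kept. In the whole list the shares were 23.1% of 3171 peaks with CP190 (21.7 to 24.6%) and 10.2% of 1564 without it (8.82 to 11.8%). The peaks without CP190 include the 1534 with none of the 3 proteins, whose share was not computed separately. The 3 peaks with Su(Hw), at hop, Socs36E and Ptp61F, were all kept. The kept share of the 340 mock Isha peaks with Su(Hw) in the whole list was not computed. The peaks with CP190 were also wide, with a median of 3063 bp against 878 bp for those without partners, and the part of width in these counts was not tested.

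CP190 overlapped 9 of the 24 mock Isha peaks at these genes (37.5%, 21.2 to 57.3%) and 67.0% of the whole mock list (65.6 to 68.3%). The run of unpartnered peaks inside Socs36E weighs on this share. Without that gene, left out after the data had been seen, it was 8 of 16 (50.0%, 28.0 to 72.0%). The intervals treat neighbouring peaks as independent, so they are not a test against the whole list. Su(Hw) was at 3 of 24 (12.5%, 4.34 to 31.0%) and Mod(mdg4) at 2 (8.33%, 2.32 to 25.8%), against 7.18% and 1.71% in the whole list.

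**Figure D3:**
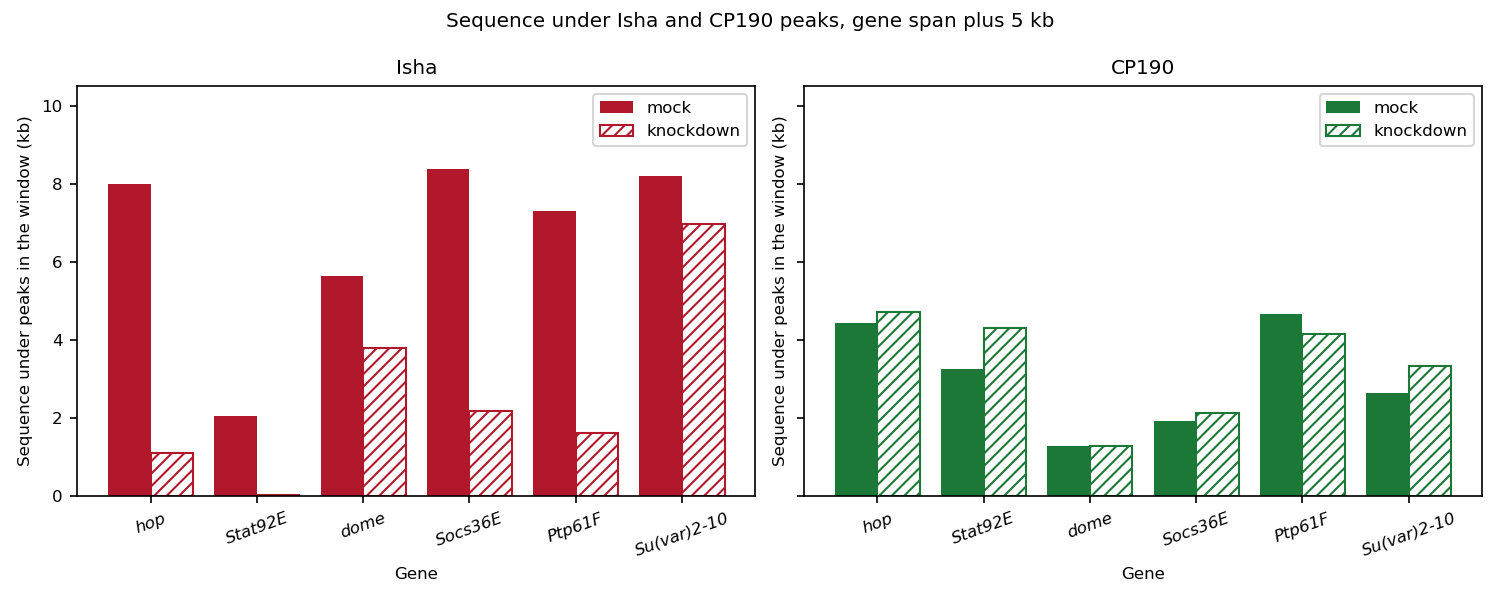
Sequence under Isha (left) and CP190 (right) peaks in each gene's window (kb), in mock cells (filled bars) and after Isha knockdown (hatched bars); each bar is 1 list, with no replicate. Isha went from 2059 to 22 bp at Stat92E and from 8183 to 6976 bp at Su(var)2-10, and CP190 from 1273 to 1275 bp at dome and from 3244 to 4299 bp at Stat92E.

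The sequence under Isha peaks fell by different amounts at the members. Within the windows it went from 7988 to 1112 bp at hop, from 2059 to 22 bp at Stat92E and from 8375 to 2170 bp at Socs36E. At Ptp61F it went from 7288 to 1627 bp, at dome from 5645 to 3801 bp and at Su(var)2-10 from 8183 to 6976 bp. The share left was 85.2% at Su(var)2-10, 67.3% at dome, 25.9% at Socs36E, 22.3% at Ptp61F, 13.9% at hop and 1.07% at Stat92E. The order of the genes depends on how the sequence is summed. Within the gene spans alone 38.3% was left at Ptp61F, 4.56% at Socs36E and 0% at hop and Stat92E. With whole peaks counted, 37.6% was left at Stat92E, and dome (67.3%) and Su(var)2-10 (66.8%) were alike. The sequence under CP190 went from 4437 to 4720 bp at hop, 3244 to 4299 bp at Stat92E, 1273 to 1275 bp at dome, 1915 to 2119 bp at Socs36E, 4658 to 4154 bp at Ptp61F and 2628 to 3343 bp at Su(var)2-10.

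The insulator proteins kept shares of their peaks at the members that were near those of their whole lists for CP190 and Su(Hw). All 12 mock CP190 peaks overlapped a knockdown peak (Wilson interval 75.8 to 100%), as did all 3 Su(Hw) peaks and 1 of 2 Mod(mdg4) peaks, the one at Socs36E being lost. The whole lists kept 93.8%, 89.9% and 74.0%. Knockdown-only peaks were 4 of 17 for CP190, with 1 at hop, 1 at Su(var)2-10 and 2 at Stat92E, and 1 of 4 for Su(Hw). In the whole knockdown lists they were 10.9% and 4.71%. Those of CP190 were 587 to 918 bp wide, near the median of 765.5 bp for such peaks in the whole list.

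**Figure D4:**
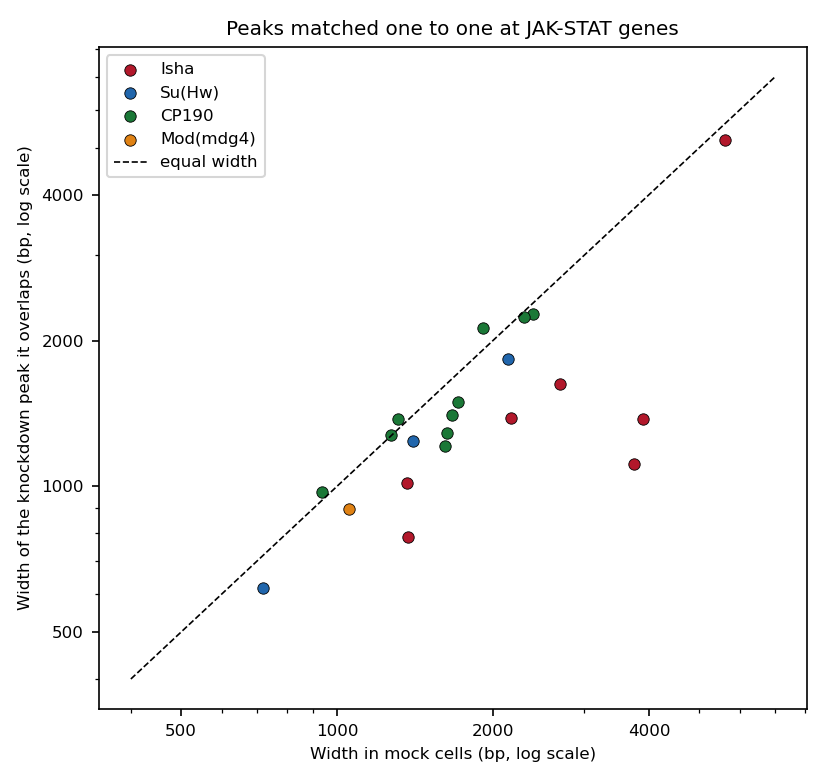
Width of each mock peak at the 6 genes that matches a single knockdown peak matching no other mock peak, against the width of that knockdown peak (bp, both axes log scale); the dashed line marks equal width. All 7 Isha points lie below the line, the 10 CP190 points on both sides of it. The 2 mock Isha peaks that share 1 wider knockdown peak at dome are not drawn. In the whole lists the median ratio of knockdown to mock width was 0.814 for Isha, 0.856 for CP190 and 0.887 for Su(Hw).

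The 7 mock Isha peaks that matched a knockdown peak one to one had all lost width, with ratios of knockdown to mock from 0.297 at hop to 0.925 at Su(var)2-10 and a median of 0.604, against 0.814 in the whole list. The other 2 of the 9 kept peaks share the single knockdown peak at dome, which at 3801 bp is wider than either of them. The CP190 ratios ran from 0.748 to 1.11 over 10 pairs, of which 6 were narrower. Mock CP190 peaks that each matched 2 knockdown peaks are not among these pairs. Those of Su(Hw) ran from 0.857 to 0.886 over 3 pairs. Both proteins also had narrower peaks after knockdown in the whole lists, with median ratios of 0.856 for CP190 and 0.887 for Su(Hw).

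At the 3 sites that also held Su(Hw) the remaining Isha peak was centred nearer to Su(Hw). The distance between the midpoint of Isha and that of the mock Su(Hw) peak went from 2200 to 1041 bp at hop, from 352 to 96 bp at Socs36E and from 1454 to 733 bp at Ptp61F. In the whole list 30 of 65 such peaks (46.2%, 34.6 to 58.1%) came nearer. Distances to CP190 were taken where the Isha peak overlapped a single mock CP190 peak. They went from 1088 to 71 bp at hop, from 292 to 36 bp at Socs36E and from 330 to 966 bp at Su(var)2-10. For CP190, 212 of 504 peaks in the whole list (42.1%, 37.8 to 46.4%) came nearer. Whether the shifts relate to either protein was not tested.

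Other genes of the pathway, 19 taken from a fixed list, varied among themselves. The ligand genes had little Isha: upd1 had no peak in any list, upd2 had Su(Hw), CP190 and Mod(mdg4) in both treatments and no Isha, and upd3 had mock Isha and knockdown CP190. The receptor antagonist gene et, next to dome, shares its mock Isha peak with dome and had no knockdown Isha. Of the 7 regulators all had mock Isha, and 2 had a knockdown Isha peak in the window, Socs16D and Socs44A, both relatives of Socs36E. The other regulators, without knockdown Isha, were ken, a repressor of STAT targets, BRWD3, E(bx), Stam and apt.

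Among 8 targets or partners, chinmo, zfh1, TotM, vir-1, CycD and Cdk4 had mock Isha, and vir-1 and Cdk4 had it after knockdown. The stress genes TotA and TotC, which are neighbours and share their peaks, had Su(Hw) and CP190 in both treatments and no Isha. Over the 19 genes, mock Isha was at 15 (61.2% of all genes), Su(Hw) at 12 (38.6%), CP190 at 14 (79.1%) and Mod(mdg4) at 3 (15.1%). After knockdown Isha was at 4 (22.9%), Su(Hw) at 10 (36.8%), CP190 at 18 (80.7%) and Mod(mdg4) at 4 (14.0%). An end covered by both Isha and CP190 in mock cells was found at 5 of the 19 (31.4% of all genes), Socs16D, Socs44A, ken, Stam and CycD.

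**Figure D5:**
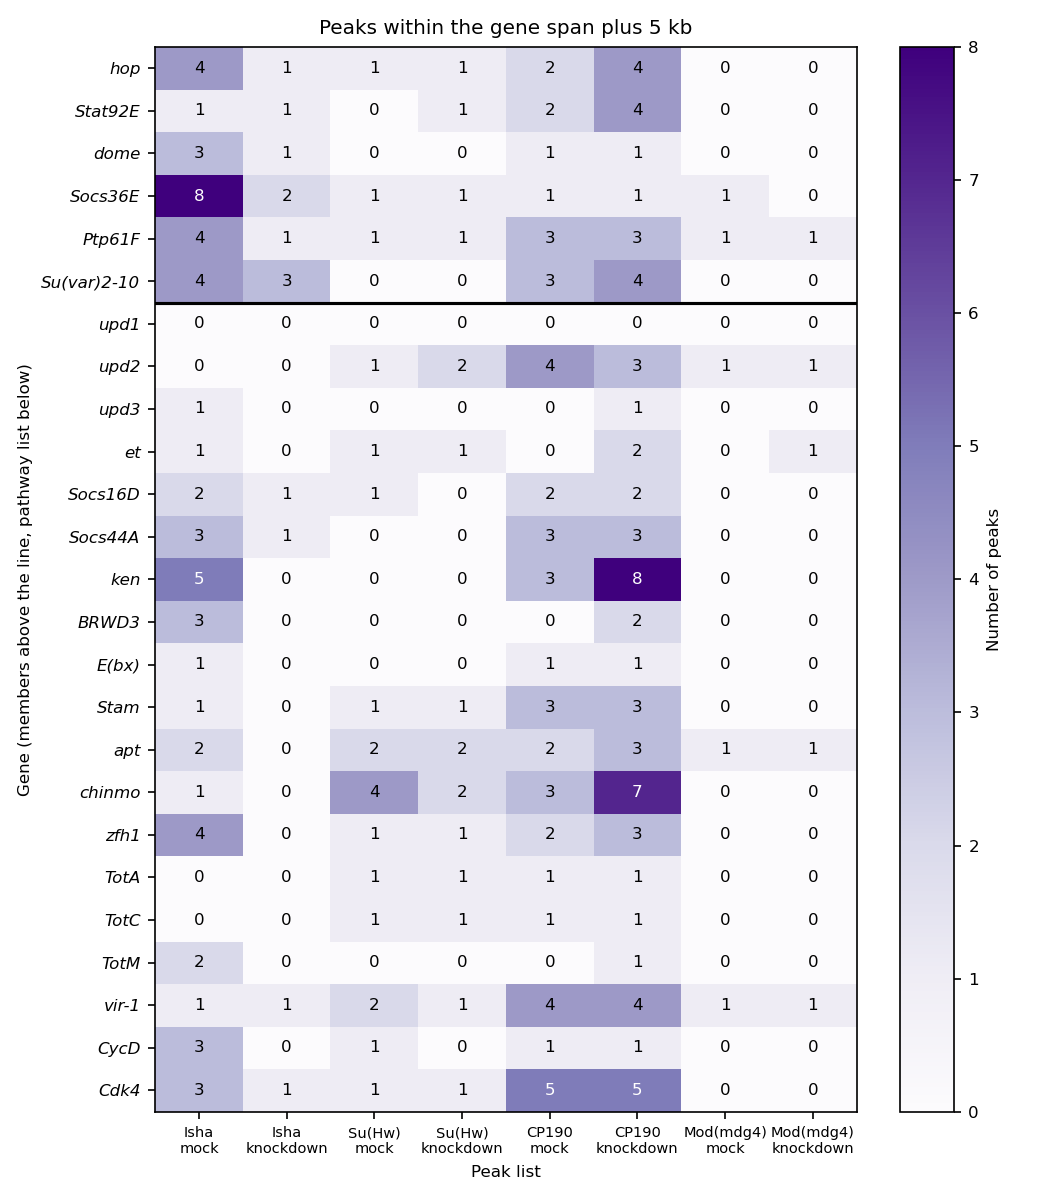
Number of peaks within the gene span plus 5 kb in each of the 8 lists, for the 6 members (above the line) and 19 other pathway genes (below). Mock Isha is present in 21 rows and knockdown Isha in 10, and the knockdown CP190 column is empty only at upd1.

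By the number of lists that differed out of 8, with 5 kb added to each gene and so with the same dependence on the window, Cdk4 had the same pattern as hop, vir-1 the same as Ptp61F, and Socs44A the same as dome and Su(var)2-10. Stat92E differed in 1 list from Socs44A and from Cdk4, and Socs36E in 1 list from vir-1 and from Cdk4.

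Just outside the windows, the nearest mock Isha peaks lay 5498 bp from Stat92E, 5514 bp from Socs36E, 5876 bp from Su(var)2-10, 7126 bp from Ptp61F, 7265 bp from hop and 8693 bp from dome. The farthest mock Isha peaks just inside lay 4265 bp from Su(var)2-10, 3824 bp from Ptp61F and 3076 bp from hop. For Socs36E the farthest was 62 bp away, and at dome and Stat92E all touched the gene.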

How the data were processed

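The deposited files give, for each antibody and treatment, chromosome, start and end of peaks in dm6, and no score, fold or read count. Per the submitters' processing notes, Bowtie2 2.4.1, SAMtools 1.9 and Picard 2.22.2 were used. For the peak caller, its threshold and the joining of replicates, details were not given in the sources used here. Lists were assigned to groups by their names, and "SwHw" was taken to mean Su(Hw), whose knockdown list would otherwise be missing. Between 1 and 5 peaks per list, on Y, were left out.

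Gene spans came from the RefSeq table of Release 6 plus ISO1 MT, in which all 6 members and all 19 other pathway genes matched by symbol. Peaks that overlapped by 1 bp or more were counted as shared, and shares have Wilson 95% intervals. All sites of the 6 members were named, other genes only from the pathway list or as the genes a site overlaps or lies next to. Members and lists were chosen with earlier results of these data known. Motifs were not searched because no genome sequence was used here. Computation used Python 3.11.15, pandas 2.3.3, NumPy 2.4.6, SciPy 1.17.1 and matplotlib 3.10.9, and the overlap steps were tested on simulated data. Coordinates count from 1.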

Additional observations from a re-analysis of the deposited data

How the results depend on the processing

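Of 144 values over 20 results and 9 alternatives, 128 stayed within 1.5 times the reported count or within the interval of the reported share. These bounds are wide, so the number within them is a weak check. Knockdown Isha at 4 members in gene spans, against 6, counts as within. The kept shares of Su(Hw) and Mod(mdg4) rest on 3 and 2 peaks, with intervals of 43.9 to 100% and 9.45 to 90.5%. The members with knockdown Su(Hw) were 2 in gene spans only and 2 among peaks at or above the first quartile of width, against 4. With 10 kb added, mock Su(Hw) was at 5 members and knockdown Mod(mdg4) at 2. Knockdown-only Su(Hw) peaks were 0% in gene spans and 0% among wide peaks. Mock Isha peaks with CP190 were 60% among wide peaks, 20.8% where each peak had to cover 50% of the other, and 8.33% where midpoints had to lie 250 bp apart at most. Those with Su(Hw) were 4.17% and 0% under the last pair of definitions, and those with Mod(mdg4) 0% with midpoints. Isha peaks kept were 12.5% with midpoints, and knockdown-only Isha peaks 33.3% with 50% cover and 66.7% with midpoints; the cause of these changes was not tested. Without Socs36E, an alternative chosen after seeing the data, Mod(mdg4) peaks kept were 100%, over 1 peak. Kept CP190 peaks were 83.3 to 100% in all alternatives. No paired analysis was possible because the lists hold no value per replicate, and leaving out a replicate was not run for the same reason.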

Other observations

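A site beyond the window of dome, inside Zw, the gene for glucose-6-phosphate dehydrogenase, differed between treatments in the number of proteins called. Su(Hw) had a peak there in both, of 1377 bp in mock cells (X, 19668152 to 19669528) and of 1372 bp after knockdown (19668232 to 19669603). CP190 (19668176 to 19669564) and Mod(mdg4) (19668462 to 19669235) had one only after knockdown. The site is 6533 bp from dome in the mock Su(Hw) list and falls in the window of et.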
